A study of Macaca mulatta with 6 samples.

Results

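Runs of closely spaced CpGs were taken from the list of CpG positions (a cytosine followed by a guanine) of a bisulfite sequencing study of rhesus macaque blood. A run was a maximal series of consecutive listed CpGs on an autosome, with no more than 50 bases from each CpG to the next. Every run with 150 or more CpGs was kept, and these are called long runs. There were 1135 of them among 11529877 maximal runs of any size, and among 19251 runs of 40 or more CpGs. The other 18116 runs, with at least 40 but fewer than 150 CpGs, are called shorter runs and serve as the comparison. The study profiled DNA of peripheral blood mononuclear cells from 6 adult female macaques, 3 at rank 5 (low ranking) and 3 at rank 1 (high ranking). The labels name no allele, agent or time. The table's value columns carry no names, so no methylation level and no comparison of ranks is given, and the results describe positions that belong to no animal. Whether the table lists every CpG of the genome is not known, and a CpG missing from it could split a run.

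In mammalian genomes, methylated cytosines at CpGs tend to be lost by deamination over evolutionary time, so that most of the genome is poor in CpGs. Stretches that are kept free of methylation in the germ line retain them, and are called CpG islands if their base composition also qualifies. Such islands often lie at gene starts, those of widely used genes and of developmental regulators among them. CpG-rich tandem repeats are another kind of dense stretch, and in human chromosomes they are frequent toward the chromosome ends. A dense run of CpGs is not in itself an island, a promoter or a repeat, and no gene or base sequence in the coordinates of the table was used here. The runs are therefore named by position only, in the table's own coordinates, for which the sources used here give no build.

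Long runs held 210334 of the 25805743 autosomal CpGs, or 0.815%, on 1932580 bases that made up 0.0713% of the autosomal span. Shorter runs held 5.05% of the CpGs on 0.516% of the span. Long runs were 5.90% of the runs of 40 or more CpGs and held 13.9% of their CpGs. The rule was applied to every listed autosomal position, so these counts describe that list and would change if CpGs are missing from it. No test was made of any difference described here.

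The number of runs fell off steadily with size, with no break at the limit. There were 122 runs of exactly 100 CpGs, 65 of 120 and 35 of 140. Just inside the limit, 33 runs held exactly 150 CpGs, and just outside it 28 runs held 1 CpG fewer. The 33 runs at the limit were 1069 to 2243 bases long, with a median of 1433, and the 28 below it 1107 to 1792, with a median of 1402.5. Their median densities were 10.5 and 10.6 CpGs per 100 bases. Taken in genome order, the first 5 runs at the limit had 8.81 to 13.1 CpGs per 100 bases and the first 5 below it 8.31 to 13.5. Above the limit, 274 runs held 200 or more CpGs, 63 held 250 or more, 21 held 300 or more and 4 held 400 or more. The median long run held 174 CpGs, with quartiles at 159 and 199, so most members lay close to the limit.

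**Figure D1:**
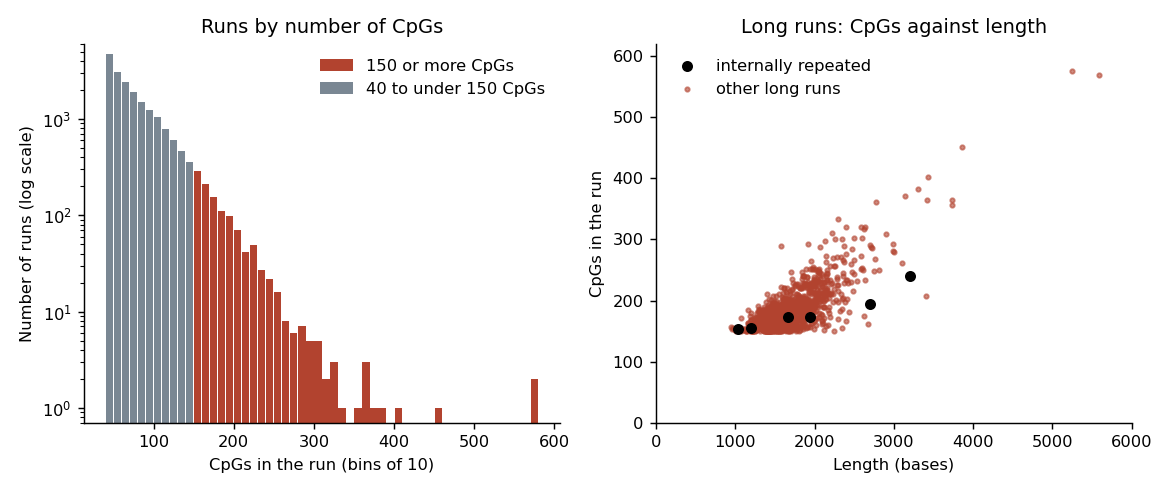
Left, number of runs (log scale) by number of CpGs in bins of 10, with long runs in red and shorter runs in grey. Right, number of CpGs against length in bases for each of the 1135 long runs, with the 6 internally repeated runs in black. The counts fall through the limit without a step, and 2 runs, of 576 and 570 CpGs, stand far above the other long runs.

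Long runs were a median of 1631 bases long, against 721 bases for shorter runs, a ratio of 2.26. Their lengths had quartiles of 1446.5 and 1889.5 bases and ran from 940 to 5582 bases. In all, 192 long runs reached 2000 bases and 13 reached 3000 bases, against 4 shorter runs that reached 2000 bases. A longer run is in part what a rule on CpG number selects. Density was a median of 10.96 CpGs per 100 bases in long runs and 9.31 in shorter runs, while the autosomes as a whole had 0.952. The 2 kinds of run overlapped widely in density. Of the long runs, 120 lay below the median of the shorter ones, and 11 shorter runs were denser than the densest long run.

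Among long runs, the number of CpGs went with length more than with density. Across the 1135 long runs, Spearman's rho between CpG number and length was 0.68, and between CpG number and density it was 0.14. Both are descriptions across regions of one genome, and CpG number is itself the product of length and density. The 861 runs with fewer than 200 CpGs had a median density of 10.9 per 100 bases and a median length of 1537 bases. The 211 runs with 200 or more but fewer than 250 had 11.2 per 100 bases and 1961 bases, and the 42 from there to below 300 had 11.6 and 2305. The 17 runs with at least 300 but fewer than 400 CpGs had 12.1 per 100 bases and 2623 bases. The 4 largest had 11.3 per 100 bases and 4556 bases.

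The 10 runs with the most CpGs lay on 8 autosomes, 3 of them on chromosome 15. The largest was on chromosome 15, chr15:107030943-107036189, with 576 CpGs in 5247 bases and 10.98 CpGs per 100 bases. Its 2 kb flanks held 29 CpGs before it and 15 after it, both fewer per kb than the median of 19 per kb in the flanks of long runs. The second, chr19:1232604-1238185, held 570 CpGs and was the longest at 5582 bases, with 10.2 CpGs per 100 bases and 42 and 90 CpGs in the flanks before and after it. The third, chr15:1410888-1414752, held 452 CpGs in 3865 bases and was separated from a preceding run of 40 or more CpGs by 384 bases. Its flank before held 124 CpGs and the flank after held 61. The fourth, chr1:4072991-4076414, held 403 CpGs in 3424 bases. These 4 runs, the only ones with 400 or more CpGs, all lay within 5 Mb of the first or last listed CpG of their chromosome, at 3.08, 1.23, 1.41 and 4.07 Mb.

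The next 6 runs in size were 2771 to 3732 bases long, and 3 of them lay deeper in their chromosomes. On chromosome 12, chr12:95578997-95582294 held 382 CpGs and lay 10.9 Mb from the end, with another run of 40 or more CpGs 316 bases away. On chromosome 9, chr9:35849972-35853107 held 372 CpGs, lay 35.8 Mb from the end and was 2.70 Mb from the nearest other long run. On chromosome 3, chr3:44894592-44897362 held 361 CpGs in 2771 bases, the highest density of the 10 at 13.03 per 100 bases, and lay 44.9 Mb from the end. The other 3 were nearer to an end. On chromosome 20, chr20:304024-307755 held 365 CpGs at 0.304 Mb from the start of the listed positions. On chromosome 17, chr17:89893181-89896594 held 364 CpGs, and 49.9% of its spacings were multiples of 3 bases, against a median of 35.3% over long runs. On chromosome 15, chr15:108810862-108814590 held 356 CpGs at 9.55 per 100 bases, the lowest density of the 10, and had 21 and 8 CpGs in its flanks.

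The densest long run was on chromosome 5, chr5:2740514-2742083, with 289 CpGs in 1570 bases, or 18.4 per 100 bases. Of its spacings, 97.6% were of 10 bases or less, and its largest spacing was 17 bases. Its densest 200 bases held 51 CpGs, the most of any long run. The 4 next in density were much smaller, with 153 to 171 CpGs in 940 to 1072 bases and 15.95 to 16.6 CpGs per 100 bases. They lay on chromosomes 12, 15, 20 and 19. At the other end of the scale, the sparsest long run had 6.03 CpGs per 100 bases.

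CpGs in long runs stood mostly a few bases apart. The median spacing, the number of bases from one CpG to the next, was 6 bases in long runs and 8 in shorter runs. It was 18 for CpGs outside both, counting only the spacings of 50 bases or less that the rule allows. Close spacings, of 10 bases or less, accounted for 70.2% of those in long runs, 63.2% in shorter runs and 32.4% outside. The most frequent spacing in long runs was 2 bases, the shortest possible, at 13.04% of spacings, followed by 3 bases at 12.4%. These shares were 11.2% and 10.03% in shorter runs, and 3.84% and 2.45% outside. The spacing of 3 bases had the largest ratio of any, with 5.07 times its share outside and 1.24 times its share in shorter runs. Every spacing from 2 to 7 bases had a higher share in long runs than in shorter ones, and every spacing of 10 bases or more had a lower one. The spacing of 8 bases, frequent across the table, went the other way from its neighbours. It made up 4.78% of spacings in long runs, 4.95% in shorter runs and 5.19% outside.

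Series of at least 5 equal short spacings were found in a larger share of long runs than of shorter runs. At least 5 consecutive spacings of 3 bases were found in 102 long runs, or 8.99%, and in 2.61% of shorter runs. At least 5 consecutive spacings of 2 bases were found in 27 long runs, or 2.38%, and in 0.574% of shorter runs. A long run has more places for such a series, which was not corrected for. The longest series of 3-base spacings in a long run was 15, in chr1:977689-978974 with 164 CpGs. That of 2-base spacings was 8, in chr1:191990596-191992056 with 175 CpGs. Both were exceeded in shorter runs, with 20 consecutive spacings of 3 bases in a run of 62 CpGs on chromosome 16. The longest series of 2-base spacings there was 9, in a run of 61 CpGs on chromosome 6.

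The 2 series of spacings counted here were almost missing from long runs. They were already known to recur in this list of positions, so their being frequent outside both kinds of run is not a result. Their counts in long runs lay below 3, the floor used for these rates, so the rates there are rough. The series 4, 5, 38, 2 and 4 bases, read in either direction, occurred 1 time in long runs, 450 times in shorter runs and 27976 times outside. Per 100000 CpGs this was 0.475, 34.5 and 115. The series 24, 20, 4, 8 and 4 bases occurred 2 times in long runs, 219 times in shorter runs and 15838 times outside, or 0.951, 16.8 and 65.2 per 100000 CpGs. Each has a spacing of 24 or 38 bases. Spacings of 24 bases made up 0.727% of those in long runs and 2.85% outside, and spacings of 38 bases 0.181% and 1.86%. Spacings of 20 bases made up 1.05% and 2.70%, while those of 2, 4 and 5 bases had higher shares in long runs than outside. Whether the shares of single spacings account for the low counts of the series was not tested.

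Long runs were densest in the middle. With the length of each run cut into 10 equal parts, the first part held a mean of 8.75 ± 3.23 CpGs per 100 bases (SD over 1135 runs), part 5 held 12.5 ± 3.28 and the last 8.69 ± 3.24. Shorter runs went through a flatter arch, with 8.64 in the first part, 10.3 in part 5 and 8.51 in the last. Only the outermost parts were close. Part 2 held 10.3 CpGs per 100 bases in long runs and 8.80 in shorter runs, and part 9 held 10.3 and 8.78, so the difference ran through all 8 inner parts. A run starts and ends where the spacing first exceeds the limit, and whether this alone lowers the density toward its ends was not tested. The outermost parts also include the run's first or last CpG by definition. That CpG counts for more in the smaller parts of shorter runs, which was not corrected for. The densest 200 bases of a long run held a median of 34 CpGs, against 26 in shorter runs. A long run has more windows of 200 bases to choose from, which was not corrected for. In long runs the densest 200 bases were centred at a median of 46.1% of the run's length, with quartiles at 29.99% and 63.004%. In shorter runs the median was 46.8%, with quartiles at 29.5% and 64.2%. The densest stretch was thus often well off the middle in both kinds of run. Where windows tied, the first was taken, which draws these positions toward the start.

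The flanks of long runs were CpG-rich, and no richer than those of shorter runs. Over the 2267 flanks that were not cut short by the end of the listed positions, the 2 kb next to a long run held a mean of 23.3 CpGs per kb and a median of 19. The flanks of shorter runs had a mean of 24.1 and a median of 19.5. The autosomal mean was 9.52 per kb, so flanks of long runs were at 2.44 times that level. The density was 36.9 per kb between 101 and 200 bases from the edge of a long run, 21.4 just beyond 1 kb and 18.0 just beyond 2 kb. Between 4 and 5 kb it still was 16.8, or 1.76 times the autosomal mean. Single flanks differed widely, from 0 to 111 CpGs per kb over the 2 kb.

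Most edges of long runs were not gaps in CpGs but spacings not far over the limit. The first spacing beyond the edge was a median of 72 bases in long runs and in shorter runs alike. At 29.3% of the 2269 edges of long runs it was at most 60 bases, and at 76.2% at most 100 bases. More than 100 bases to the next CpG on both sides were found in 64 long runs, or 5.64%, and in 7.81% of shorter runs. At 4 edges of long runs the next CpG was over 5000 bases away. The widest was at the run chr3:69872532-69874874, with 187 CpGs, where the last CpG before it lay 39532 bases away.

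**Figure D2:**
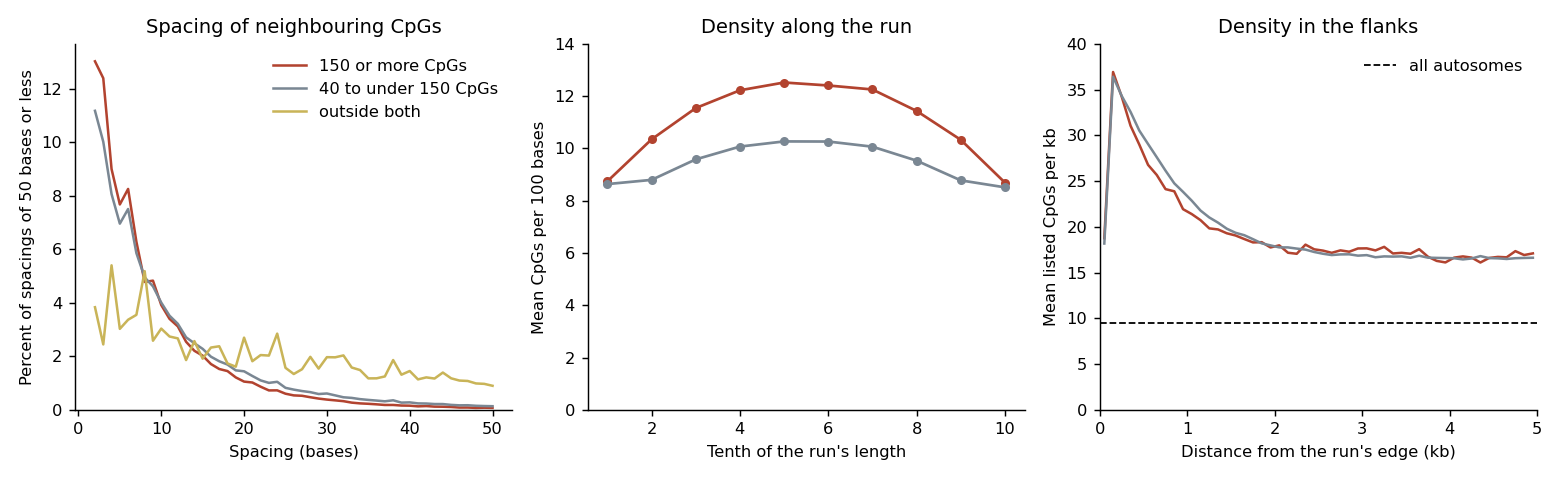
Left, percent of CpG spacings (50 bases or less) at each spacing in long runs (red), shorter runs (grey) and outside both (yellow). Middle, mean CpGs per 100 bases in each of 10 equal parts of the run's length. Right, mean listed CpGs per kb by distance from the edge of the run, with the autosomal mean of 9.52 as a dashed line. Long runs exceed shorter runs in the 8 inner parts, while the flanks of both follow nearly the same curve.

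Long runs were present on all 20 autosomes, at 0.419 per Mb of span over the autosomes together. Chromosome 1 had the most, 125 runs, and chromosomes 12, 17 and 18 had the fewest, 32 each. Per Mb, the highest rate was 0.978 on chromosome 19, then 0.863 on chromosome 16, 0.771 on chromosome 20 and 0.654 on chromosome 10. Chromosome 5 had the lowest at 0.225, then chromosome 2 at 0.242. The range was 4.35-fold, against 7.17-fold for shorter runs. It depended on the limits, at 6.95-fold with spacings of up to 100 bases and 11.2-fold with 200 or more CpGs. The second was wider than that of shorter runs but rested on 274 runs, against 18116 shorter runs. Few runs per autosome can widen such a range. As a share of the CpGs, long runs ranged from 0.530% on chromosome 2 to 1.31% on chromosome 20.

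Chromosome 19, the first by rate of long runs, was the last by their share among runs. There, long runs made up 41.1 per 1000 runs of 40 or more CpGs, against 59.0 over all autosomes. Its shorter runs numbered 22.8 per Mb, against 6.69 over all autosomes. Chromosome 11 followed with 44.8 per 1000 and chromosome 15 with 50.3. The highest shares were on chromosome 18, at 80.4 per 1000, and on chromosomes 20 and 17, both at 72.4. Chromosomes 17 and 18 had 4.34 and 4.98 shorter runs per Mb, below the value of all autosomes. Chromosome 20 was high by both measures, and chromosome 5, lowest by rate, had 66.1 long runs per 1000 runs, above the share of all autosomes.

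**Figure D3:**
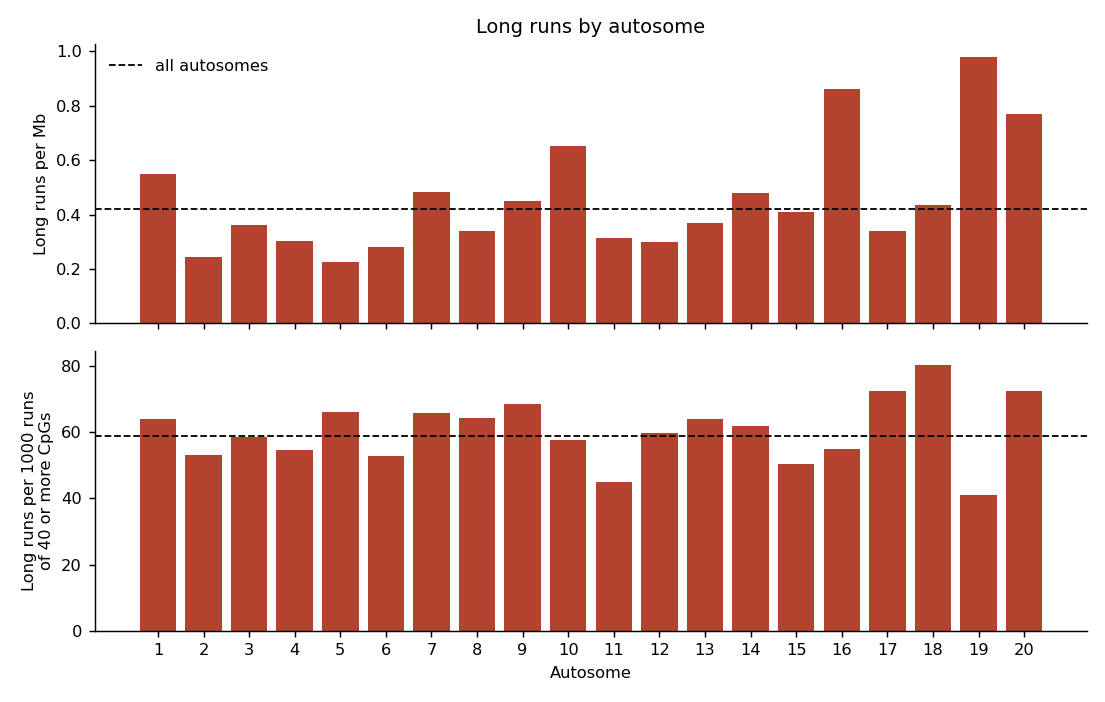
Long runs per Mb of span (top) and per 1000 runs of 40 or more CpGs (bottom) on each autosome, with the value over all autosomes as a dashed line. Chromosome 19 is highest in the top panel, at 0.978, and lowest in the bottom panel, at 41.1, and chromosome 18 is highest in the bottom panel, at 80.4.

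Long runs were concentrated near the ends of the listed positions, more than shorter runs were. Within 5 Mb of the first or last listed CpG of their chromosome lay 367 of the 1135 long runs, or 32.3%, against 21.9% of all runs of 40 or more CpGs. These zones made up 7.38% of the autosomal span and held 12.9% of the autosomal CpGs. There were 1.83 long runs per Mb in them and 0.306 per Mb in the rest, a ratio of 5.997, while for shorter runs the ratio was 3.38. All 20 autosomes had a higher rate of long runs in the zones than in the rest, by 2.04-fold on chromosome 13 to 11.9-fold on chromosome 20. Among runs of 40 or more CpGs, long ones were 87.2 per 1000 within 5 Mb of an end and 51.1 per 1000 elsewhere. This share was higher near the ends on 17 of the 20 autosomes. Chromosomes 5, 13 and 17 were the exceptions.

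The rate rose stepwise toward the end. Relative to the rate at 20 Mb or more, long runs were at 1.27 between 10 and 20 Mb and at 2.13 between 5 and 10 Mb. They were at 4.01 between 2 and 5 Mb, 10.5 between 1 and 2 Mb, and 11.5 within 1 Mb. Shorter runs were at 1.29, 1.72, 2.61, 4.87 and 5.96. The 2 kinds of run thus parted within 10 Mb of the end. At 20 Mb or more from an end lay 516 long runs, or 45.5%, against 54.3% of shorter runs. Of the 274 runs with 200 or more CpGs, 40.1% lay within 5 Mb of an end, against 29.8% of the long runs with fewer.

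The 2 ends of a chromosome often differed. Chromosome 1 had 27 long runs within 5 Mb of its first listed CpG and 7 within 5 Mb of its last. Chromosome 8 had 3 and 16, chromosome 14 had 18 and 4, and chromosome 12 had 0 and 10. Chromosome 20 had 24 and 17, and 60.3% of its long runs lay in these zones. Some long runs touched the end itself. The last 175 CpGs listed on chromosome 20 formed a long run, chr20:88220562-88221747. On chromosome 17 a run of 155 CpGs ended 222 bases from the last listed CpG, and on chromosome 14 a run of 292 CpGs ended 1497 bases from it. The listed positions need not reach the chromosome's true end.

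**Figure D4:**
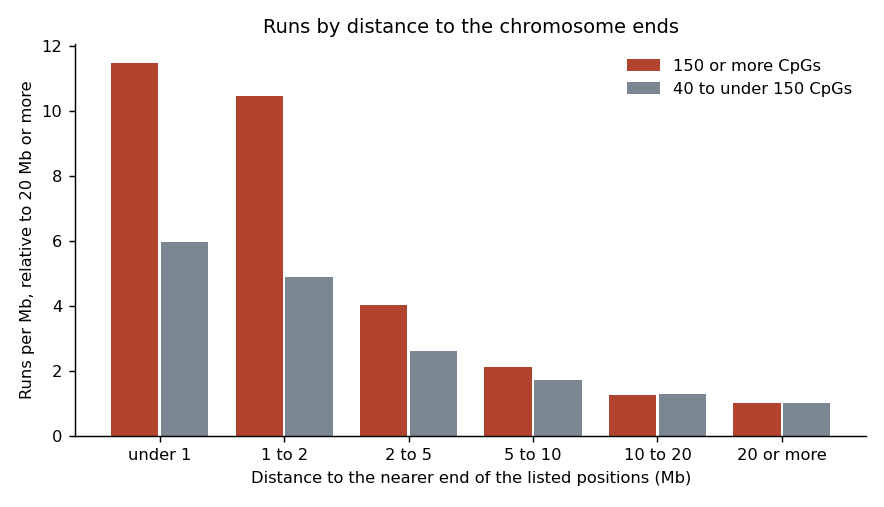
Runs per Mb by distance to the nearer end of the listed positions, divided by the rate at 20 Mb or more, for long runs (red) and shorter runs (grey). Within 1 Mb long runs reach 11.5 and shorter runs 5.96 times their rate at 20 Mb or more.

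Most long runs stood alone, and a minority lay in loose groups. The median distance from a long run to the nearest other long run was 399590 bases, while from a shorter run to the nearest long run it was 482448 bases. Within 100 kb of another long run lay 297 long runs, or 26.2%, against 20.5% of all runs of 40 or more CpGs. They formed 123 groups of 2 or more, and the other 838 stood alone. Another long run lay within 1 kb of 21 long runs, or 1.85%, and of 1.23% of shorter runs. Within 10 kb the shares were 5.73% and 3.996%. A run of any size from 40 CpGs, by contrast, lay within 2 kb of 22.4% of the long runs and of 27.03% of the shorter runs.

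The largest group had 7 long runs on chromosome 14 within 289 kb, from 257525 to 546180, and began 0.257 Mb from the first listed CpG. Its members held 166, 189, 216, 165, 153, 182 and 174 CpGs. Its members 4 and 5 lay 1.85 kb apart, and the widest distance between neighbours was 86.7 kb. The last member was unlike the others, with 6.64 CpGs per 100 bases against 9.41 to 12.8 in the rest. Groups of 6 lay on chromosome 1 from 4475461 to 4696702, on chromosome 15 from 960709 to 1180310 and on chromosome 20 from 2172058 to 2484546. Of the 10 groups with 4 or more long runs, the tightest was on chromosome 7, with 5 long runs within 29.6 kb from 1151228 to 1180853. Of these 10 groups, 9 lay within 5 Mb of an end, the zones that held 32.3% of all long runs. The exception was a group of 5 on chromosome 14 at 8.53 Mb.

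The most isolated long runs were ordinary in size. On chromosome 12, chr12:11390987-11392619, with 180 CpGs, was 22.999 Mb from the nearest other long run. On chromosome 6, chr6:36023027-36024707, with 169 CpGs, was 16.2 Mb from one. The next 3, on chromosomes 14, 1 and 15, were 14.4, 11.9 and 11.9 Mb from one and held 167, 199 and 190 CpGs. The flanks of these 5 runs held 11 to 36 CpGs in 2 kb.

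A few long runs repeated the same spacings in the same order. For each run, the share of spacings equal to the spacing a fixed number of places before was taken, at the place number from 1 to 100 with the highest share, and at most 50% of the number of spacings in the run. That share was 50% or more in 6 of the 1135 long runs, or 0.529%, against 1.41% of all runs of 40 or more CpGs. The median was 13.2% in long runs and 13.6% in shorter runs, far below the limit in both. All 6 lay within 5 Mb of an end of the listed positions, at 0.554 to 2.87 Mb, against 32.3% of all long runs. Of the 266 shorter runs past the same share, 198, or 74.4%, lay within 5 Mb of an end, against 21.2% of all shorter runs.

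The strongest case was chr14:131935371-131936399, with 153 CpGs in 1029 bases, where 74.7% of spacings equalled the one 6 places before. Its unit was 23, 5, 3, 3, 2 and 2 bases, adding up to 38 bases. Of the 147 windows of 6 spacings, 112 held this unit in some phase. On chromosome 2, chr2:186872036-186875232 held 240 CpGs in 3197 bases, with a share of 66.5% and a unit of 28, 2 and 9 bases, or 39 bases in all. That unit was found 53 times. On chromosome 11, chr11:133909540-133910731 held 155 CpGs, with a share of 63.1% and a unit of 14, 2, 2, 7 and 7 bases, or 32 bases. These 3 differed in density, at 14.9, 7.51 and 13.003 CpGs per 100 bases.

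The other 3 had shares of 55.1% to 57.1%. On chromosome 10, chr10:92445728-92447662 held 173 CpGs with a unit of 15 and 5 bases, the shortest of the 6 at 20 bases. On chromosome 15, chr15:107767678-107770372 held 195 CpGs with a unit of 32, 3 and 3 bases, or 38 bases. On chromosome 20, chr20:87666392-87668054 held 173 CpGs with a unit of 13, 7, 11, 12 and 4 bases, the longest of the 6 at 47 bases. No 2 of the 6 had the same unit, although those on chromosomes 14 and 15 had the same length of 38 bases.

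Just below the limit were runs with weaker or longer order. On chromosome 11, chr11:133877595-133879549, only 29991 bases from the repeated run of that chromosome, had a share of 44.5%, and 86.1% of its spacings were multiples of 3 bases, the most of any long run. On chromosome 9, chr9:132238936-132241178 had a share of 47.9%, and chr5:181853428-181855103 had 44.3% with a unit of 30 bases. The run chr3:69872532-69874874, with the widest edge described above, had 43.9% at 88 places, which most often added up to 1143 of its 2343 bases. No unit was derived for this run. The largest of all long runs, on chromosome 15, had a share of 24.6% at 5 places, with a unit of 16, 3, 8, 2 and 3 bases found 27 times.

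**Figure D5:**
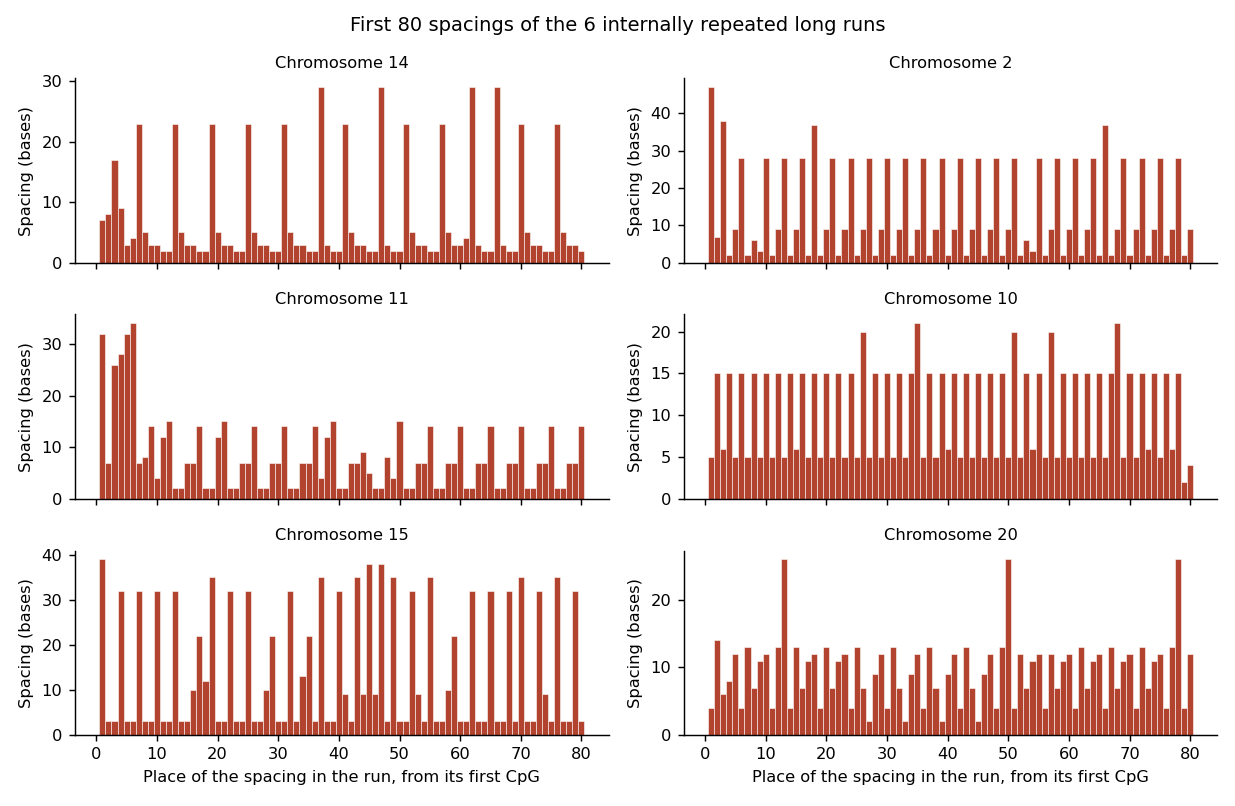
The first 80 spacings, in bases, of the 6 internally repeated long runs, each named by its chromosome and drawn in the order of the CpGs. The repeated unit shows as a comb. Over the whole run, the repeated share was highest on chromosomes 14 and 2, with 38 and 39 bases per unit.

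An identical series of 12 consecutive spacings, in either direction, was shared by 10 long runs with another long run, in 5 pairs. The number depended on the length of the series, with 216 long runs at 8 spacings and 2 at 16. Set against all runs of 40 or more CpGs, 33 long runs, or 2.91%, shared 12 spacings with another run, while 4.42% of all such runs did. At 8 spacings the order was turned, with 44.1% of long runs and 19.9% of all, and a long run has more places for a match. The longest was a series of 16 spacings, shared in opposite directions by chr7:40459508-40460679 and chr7:40553513-40554802, with 161 and 173 CpGs, 92834 bases apart. On chromosome 17, chr17:31730471-31733100 and chr17:32078888-32080907 shared 14 spacings in opposite directions. On chromosome 1, chr1:42364619-42366590 and chr1:42666017-42667532 shared 12, also in opposite directions. On chromosome 3, the run with that widest edge shared 13 with its neighbour 647 bases further on, chr3:69875521-69877910, in the same direction. The fifth pair joined 2 chromosomes, chr1:977689-978974 and chr11:62859698-62861364, by 12 spacings. The first of these is the run with 15 consecutive spacings of 3 bases.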

How the data were processed

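Bisulfite sequencing was applied to blood mononuclear cell DNA of 6 macaques. The submitters' processing notes name Bismark, an aligner and methylation caller. The build, and whether CpGs were filtered, is not stated in those sources. The authors deposited one table without a header, in which the position columns (unit other, as start and end of 1 cytosine per CpG) were used. Its 12 further columns carry no names and were not used, so depth and methylation levels are not given, the planned rank comparison was not made, and the tests planned for it were not run. The planned match of runs to gene promoters and to gene lists needs promoter sequences and was not made. No cell type markers were tested.

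Positions are 1-based. Runs, spacings, flanks, distances and repeated orders were computed with Python 3.11.15, numpy 2.4.6, pandas 2.3.3 and scipy 1.17.1, and figures with matplotlib 3.10.9. The functions were tested on simulated positions with 60 planted runs, and 8 of 8 planted quantities were recovered. An end is the first or last listed CpG of a chromosome. A unit is the most frequent series of spacings, in any phase, at the place number with the highest share. Named runs are the 10 with the most CpGs, the 5 longest, densest and most isolated, the first 5 on either side of the limit, the largest group and the 10 highest repeated shares, besides runs that a small count or an extreme value called for, chosen after their values were seen. The rule, the comparisons and the limits were chosen with earlier results of these data known.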

Additional observations from a re-analysis of the deposited data

How the results depend on the processing

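No paired analysis was possible because the value columns name no animal. With a largest spacing of 40 bases there were 638 long runs holding 0.450% of the autosomal CpGs, and 637 of the 1135 long runs overlapped one. With 60 bases there were 1605 holding 1.17%. With 100 bases there were 3417 holding 2.63%, with a median length of 2416 bases, 7.91 CpGs per 100 bases and a 6.95-fold range of rates across autosomes. With at least 120 CpGs there were 2567 runs holding 1.55%, and with at least 200 there were 274 holding 0.252% and an 11.2-fold range. The share within 5 Mb of an end was 26.6% to 40.1% over these 5 settings. Within 50 kb of another long run lay 190 long runs and within 1 Mb 804, and within 2 Mb of an end lay 237. A repeated share of 30% was reached by 26 long runs and one of 70% by 1. Series of 8 spacings were shared by 216 long runs and series of 16 by 2. The counts of runs change with the limits by definition, and the causes of the other shifts were not tested. The median length and density in the settings not named, the flank density at 1 kb and 5 kb, the 5.395-fold range per Mb of tiles with a listed CpG, and the spacing share without repeated runs moved less than the spread or limit set for them. Matches to genes and the rank comparison were not run.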

Other observations

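The rule keeps autosomes only. The X chromosome held 31 runs of 150 or more CpGs, or 0.201 per Mb, 0.481 times the autosomal rate and below the 0.225 of chromosome 5. Among its 610 runs of 40 or more CpGs they were 50.8 per 1000, within the range of the autosomes. Their median length was 1614 bases and their median density 10.7 CpGs per 100 bases, close to the autosomal medians of 1631 and 10.96. The largest, chrX:38841741-38844102, held 231 CpGs, fewer than the largest run of any autosome. The sequence named chrUr, with 9289 listed CpGs, held 1 such run, of 162 CpGs.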
